A study of Rattus norvegicus with 12 samples.

Results

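Actins and the proteins that bind them in contractile cells were followed in cultured heart cells through 10 genes, chosen by name: the actin genes Acta1, Actc1, Acta2, Actb and Actg1, and the contractile genes Tagln, Cnn1, Cald1, Tpm2 and Myl9. They are 10 of the 18483 genes in the deposited tables, each found once by its symbol, and all 10 passed the filter on low counts. They were listed by name with earlier results of these samples known, and with attention to a knockdown effect that PE (phenylephrine) reverses. All 4 groups enter that reversal, so each comparison of the 10 genes is a description. Calls of these genes at a p threshold are counted below but are not read as tests. Test results are given for other genes, whose lists were also chosen with earlier results known.

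The cells were neonatal rat ventricular myocytes (NRVMs) from Sprague-Dawley rats, a primary culture of heart muscle cells from newborn animals. Every culture was first transfected, either with siNeg, a control siRNA, or with siSlc39a2, an siRNA against the zinc transporter gene Slc39a2. The groups siNeg and siSlc39a2 stayed untreated, and siNeg PE and siSlc39a2 PE then received PE, an agonist of alpha-1 adrenergic receptors used to induce hypertrophy, for 36 h according to the labels (the study's culture methods state a longer time). Each of the 4 groups had 3 biological replicates, which makes 12 samples of bulk RNA-seq, all carrying a transfected siRNA. The knockdown rests on an siRNA of a single sequence, with no second one to compare.

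Actin filaments are built from closely related isoforms. Actc1 encodes cardiac and Acta1 skeletal alpha-actin, the isoforms of the sarcomere, and a rise of Acta1 is a classical part of the fetal gene programme of hypertrophied ventricle. Acta2 encodes smooth muscle alpha-actin, which marks smooth muscle cells and myofibroblasts and is also made by immature cardiomyocytes, while Actb and Actg1 encode the cytoplasmic actins of all cells. Many of these genes carry CArG boxes, the binding motif of serum response factor (SRF), whose coactivators of the MRTF family are held back by unpolymerised actin.

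Promoter sequence was available for 7 of the 10 genes in RefSeq (assembly GRCr8), as the 250 bases before and 50 after the annotated start. Stretches of 4 actin genes are printed 5′ to 3′ on the strand of the gene, because a CArG box or the motif CATTCC falls in them. Capitals mark the motifs. For Acta1 the stretch is chr19:68784245-68784304 (minus strand), 110 to 51 bases before the start. For Actg1 it is chr10:106121002-106121061 (minus strand), also 110 to 51 bases before the start. The Actc1 stretch, chr3:121271806-121271835 (minus strand), spans the start itself, and the Acta2 stretch, chr1:241172654-241172713 (minus strand), lies 210 to 151 bases before it.
Acta1: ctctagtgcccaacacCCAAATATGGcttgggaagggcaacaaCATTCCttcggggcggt
Actg1: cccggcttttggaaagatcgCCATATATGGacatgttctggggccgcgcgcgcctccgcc
Actc1: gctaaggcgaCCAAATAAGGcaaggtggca
Acta2: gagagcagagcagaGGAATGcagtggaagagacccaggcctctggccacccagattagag

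CArG boxes were searched only as exact matches to CCWWWWWWGG, where W is A or T, so any box that departs from it was missed. Exact matches were found in the windows of Acta1, Actg1 and Actc1, 3 of the 7 genes. Among all 33469 promoters of that length, 548 had one (1.64%). CATTCC, the motif of TEAD factors, was searched on both strands and was present in Acta1, in Acta2 (read there on the opposite strand, as GGAATG) and in Cald1. These 3 of 7 genes compare with 4749 of all promoters (14.2%). Neither motif was in the windows of Cnn1 and Tpm2. A match is a run of letters in a window and not a measured binding site, and the window is short.

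Total expected counts were between 24065539 and 28603854 per sample. As a check of the knockdown labels, the siNeg samples had 50, 50 and 59 counts of Slc39a2, whereas those of siSlc39a2 had 21, 11 and 2, and siSlc39a2 PE (31, 25 and 38) was likewise below siNeg PE (95, 198 and 182). Levels below are FPKM, fragments scaled to transcript length and sequencing depth, so that genes can be compared with each other. Log2 fold changes and their standard errors (SE) come from edgeR on the counts of 13967 genes. Counts of Tagln, Cnn1, Cald1, Tpm2 and Myl9 were whole numbers, whereas reads of the 5 actins were partly shared with near-identical copies, so that values of single actins are uncertain to that extent. In bulk RNA, fewer cells of a type and less RNA per cell cannot be told apart.

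Acta1 had the widest range of the actins. It stood at 501, 458 and 506 FPKM in siNeg and at 193, 217 and 223 FPKM in siSlc39a2. With PE it reached 1657, 2137 and 2122 FPKM in siNeg PE and 2157, 2014 and 2033 FPKM in siSlc39a2 PE. The 2 untreated groups were apart from each other and from both PE groups, whereas the 2 PE groups overlapped. The log2 fold change of siSlc39a2 against siNeg was -1.35 (SE 0.09), and that of siSlc39a2 PE against siNeg PE was 0.06 (SE 0.09). Starting from its lower level, Acta1 was thus 3.35 (SE 0.10) higher in siSlc39a2 PE than in siSlc39a2 on the log2 scale, compared with 1.93 (SE 0.09) for siNeg PE against siNeg.

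Actc1, the main actin of the adult myocardium, did not share this dip. Its levels were 7373, 6980 and 7535 FPKM in siNeg and 7290, 7368 and 7538 FPKM in siSlc39a2, which overlapped (log2 fold change -0.12, SE 0.06, and 0.02 when scaled to library size without TMM). In siNeg PE they were 13925, 13411 and 13721 FPKM, and in siSlc39a2 PE 19953, 18024 and 18167 FPKM. Every siSlc39a2 PE sample was above every siNeg PE sample, and the log2 fold change between them was 0.44 (SE 0.06). Actc1 had the highest FPKM of all genes in each of the 12 samples. The ratio of Actc1 to Acta1 in FPKM was 15.0 ± 0.265 (SD, n = 3) in siNeg, 35.2 ± 2.26 in siSlc39a2, 7.05 ± 1.18 in siNeg PE and 9.05 ± 0.177 in siSlc39a2 PE.

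Acta2 was lowest in siSlc39a2, with 371, 370 and 375 FPKM, against 878, 890 and 947 FPKM in siNeg. The siNeg PE samples had 616, 700 and 813 FPKM and the siSlc39a2 PE samples 661, 607 and 678 FPKM. Both PE groups overlapped and lay between the untreated groups, so that PE went with a lower level in control cells and a higher one after knockdown. The knockdown effect was -1.42 (SE 0.08) on the log2 scale without PE and -0.14 (SE 0.08) with it. Acta2 in siSlc39a2 PE remained below siNeg (log2 fold change -0.57, SE 0.08).

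**Figure D1:**
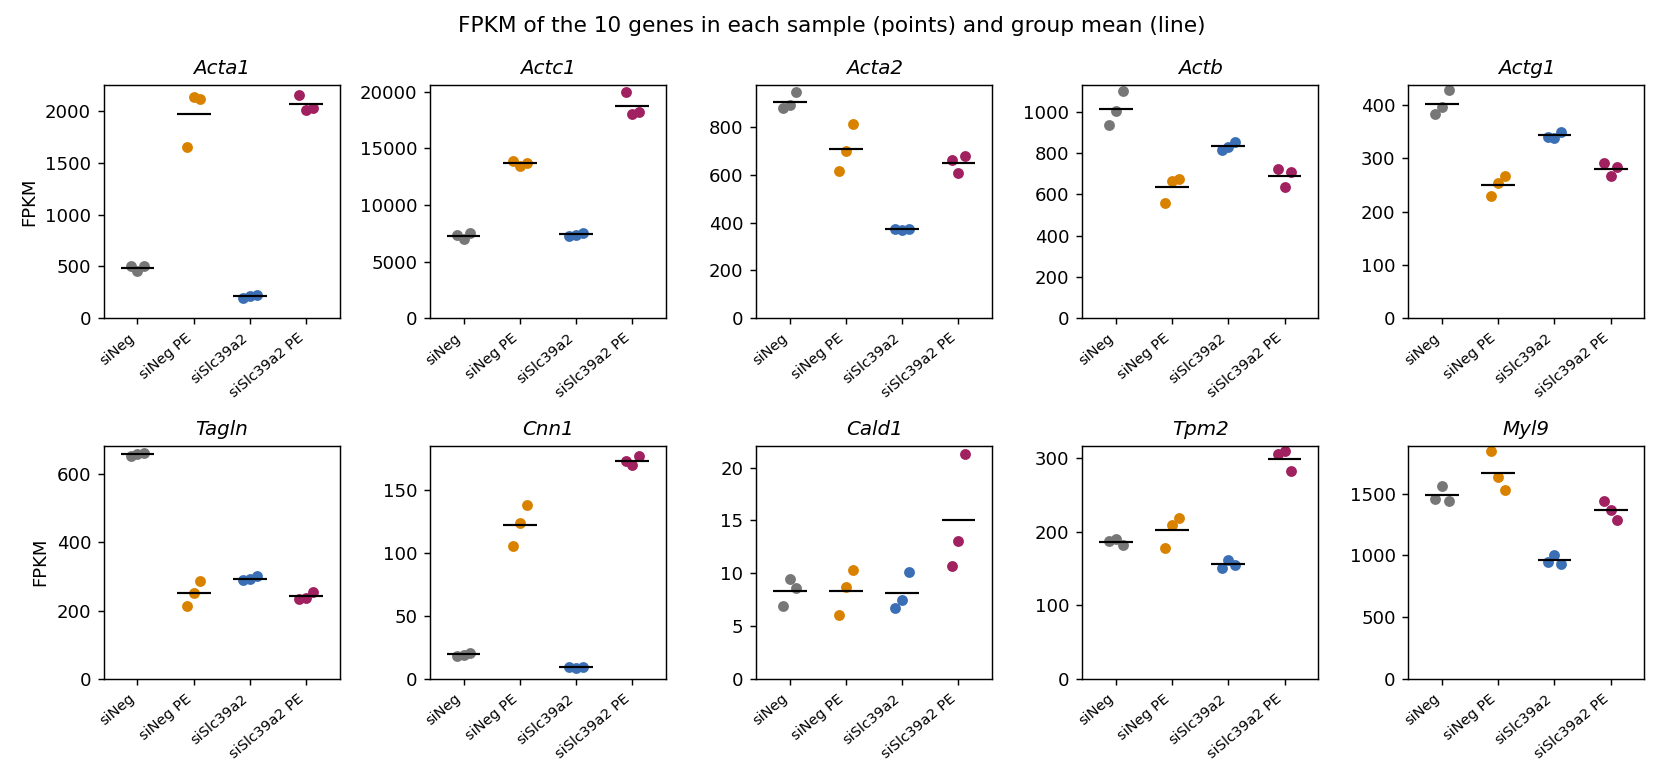
FPKM of the 10 genes in each of the 12 samples, one panel per gene with its own linear axis from 0, grouped by siRNA and PE treatment. Points are samples, and lines are group means (n = 3). Acta1, Acta2, Tagln and Cnn1 are lower in siSlc39a2 than in siNeg in every sample, whereas the 2 PE groups overlap for Acta1, Acta2 and Tagln and are apart for Cnn1.

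Tagln (transgelin, or SM22 alpha), an actin-binding protein of smooth muscle and an early marker of its lineage, differed from Acta2 in its response to PE. It had 652, 658 and 660 FPKM in siNeg and 288, 291 and 301 FPKM in siSlc39a2. In siNeg PE it had 212, 251 and 287 FPKM, and in siSlc39a2 PE 233, 237 and 255 FPKM. The siNeg samples stood alone at a high level, and the other 3 groups lay within 212 and 301 FPKM. The knockdown effect was -1.30 (SE 0.08) on the log2 scale without PE and -0.05 (SE 0.08) with PE. Here the small effect with PE did not come with a return towards the siNeg level: siSlc39a2 PE against siNeg was -1.53 (SE 0.08). The ratio of Acta2 to Tagln in FPKM was 1.38 ± 0.0493 (SD, n = 3) in siNeg and 1.27 ± 0.0211 in siSlc39a2, and 2.84 ± 0.0601 and 2.68 ± 0.137 in the respective PE groups.

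Cnn1 (calponin 1), which binds actin and inhibits the myosin ATPase in smooth muscle, had the largest relative range of the 10 genes, with 18.8 times between the highest and lowest group mean. Its levels were 18.3, 19.3 and 20.8 FPKM in siNeg and 9.16, 8.88 and 9.61 FPKM in siSlc39a2. They were 106, 124 and 138 FPKM in siNeg PE and 173, 170 and 177 FPKM in siSlc39a2 PE. None of the 4 groups overlapped with another. The knockdown effect changed its sign with PE, from -1.22 (SE 0.09) to 0.50 (SE 0.08) on the log2 scale.

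Tpm2 (beta-tropomyosin), which lies along the actin filament and is prominent in fetal and slow muscle, had 187, 190 and 182 FPKM in siNeg and 151, 161 and 155 FPKM in siSlc39a2. It had 178, 209 and 219 FPKM in siNeg PE and 305, 309 and 282 FPKM in siSlc39a2 PE. Thus siSlc39a2 held the lowest group of the 4 without PE and the highest with PE. The log2 fold changes for the knockdown were -0.37 (SE 0.07) and 0.61 (SE 0.07), respectively.

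Myl9, a regulatory light chain of smooth and non-muscle myosin, had 1460, 1560 and 1439 FPKM in siNeg and 948, 1004 and 931 FPKM in siSlc39a2. With PE there were 1843, 1639 and 1526 FPKM in siNeg PE and 1443, 1371 and 1287 FPKM in siSlc39a2 PE. Unlike the genes above, Myl9 stayed lower after knockdown in every sample also with PE. The log2 fold change was -0.77 (SE 0.08) without PE and -0.30 (SE 0.08) with PE. On quantile-normalized log2(FPKM + 1) the latter was -0.02.

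Cald1 (caldesmon), which binds actin, myosin and calmodulin, was the lowest of the 10 genes in FPKM in siNeg and the least precise. Its levels were 6.91, 9.48 and 8.56 FPKM in siNeg, 6.74, 7.48 and 10.1 FPKM in siSlc39a2, and 6.01, 8.68 and 10.3 FPKM in siNeg PE. These 3 groups overlapped. All siSlc39a2 PE samples were above them, with 10.7, 13.0 and 21.3 FPKM, and 1 of the 3 stood well above the other two. The knockdown effect was -0.18 (SE 0.24) without PE and 0.87 (SE 0.23) with PE on the log2 scale.

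The cytoplasmic actins Actb and Actg1 moved in parallel over small ranges. Actb had 934, 1001 and 1102 FPKM in siNeg, 815, 831 and 851 FPKM in siSlc39a2, 556, 666 and 676 FPKM in siNeg PE and 722, 637 and 706 FPKM in siSlc39a2 PE. Actg1 had 384, 396 and 428 FPKM in siNeg, 341, 339 and 350 FPKM in siSlc39a2, 230, 253 and 267 FPKM in siNeg PE and 291, 266 and 283 FPKM in siSlc39a2 PE. For both genes the untreated groups did not overlap and lay above the PE groups, and the 2 PE groups overlapped. The knockdown effects on the log2 scale were -0.41 (SE 0.08) for Actb and -0.37 (SE 0.06) for Actg1 without PE, and 0.13 (SE 0.08) and 0.15 (SE 0.06) with PE.

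Isoform makeup was taken as each gene's share of the summed FPKM of 6 actin genes, the 5 above and the enteric smooth muscle actin Actg2. The sum was 10126 ± 398 FPKM (SD, n = 3) in siNeg, 9170 ± 166 in siSlc39a2, 17260 ± 316 in siNeg PE and 22408 ± 1210 in siSlc39a2 PE. The striated isoforms Acta1 and Actc1 together made up 76.9% ± 0.992 of it in siNeg, 83.0% ± 0.0333 in siSlc39a2, 90.7% ± 0.881 in siNeg PE and 92.7% ± 0.353 in siSlc39a2 PE. Untreated knockdown cells thus had a higher striated share than siNeg cells, although Acta1 itself went from 4.82% to 2.3%. What had shrunk beside it was Acta2, from 8.94% ± 0.217 to 4.06% ± 0.0493, while Actb had 9.99% ± 0.646 and 9.07% ± 0.0378. In the PE groups Actb was at 3.66% ± 0.337 and 3.07% ± 0.141.

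**Figure D2:**
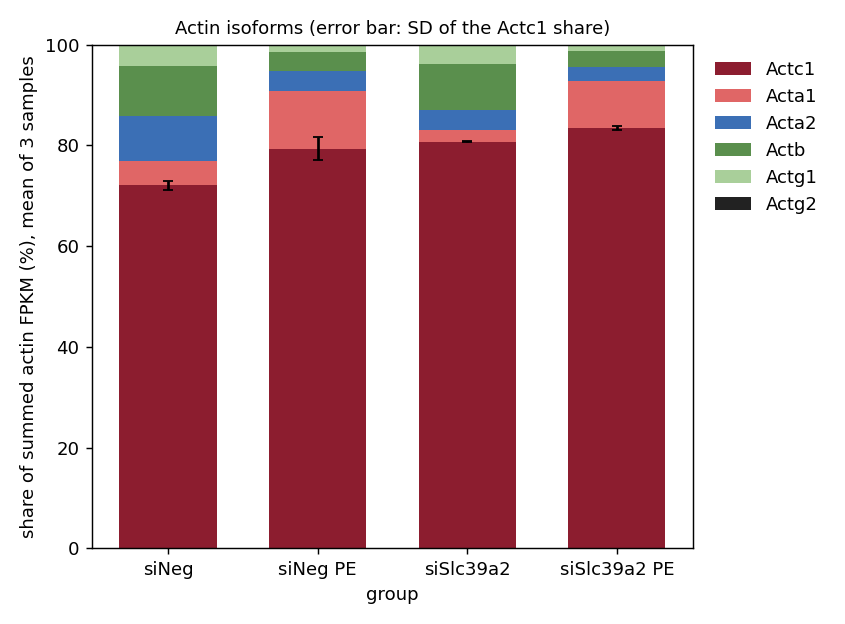
Mean share of each isoform in the summed FPKM of the 6 actin genes, in percent, stacked for each of the 4 groups (n = 3 samples each). Actc1 fills most of every bar, between 72.1% and 83.5%. Acta1 is widest in siNeg PE with 11.4%, and Actg2 (at most 0.219%) is too thin to be seen.

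Counted over the list, 8 of the 10 genes were lower in siSlc39a2 than in siNeg at an adjusted p under 0.05 and none was higher. Among all tested genes, 26.4% were lower at that threshold and 49.2% differed in either direction. At an unadjusted p under 0.05 there were also 8 lower and none higher, and DESeq2 gave the same numbers. In all limma fits Actb and Actg1 missed the adjusted p, which left 6 lower. In limma on log2(count + 1), Actc1 was called higher. With a log2 fold change beyond 1 required as well, 4 genes were lower (Acta1, Acta2, Cnn1 and Tagln), beside 5.21% of all tested genes. Between siSlc39a2 PE and siNeg PE, 5 genes were higher (Actc1, Actg1, Cald1, Cnn1 and Tpm2), beside 29.2% of all genes, and Myl9 was lower, beside 28.1%. None of these 6 differed by more than 1 on the log2 scale, in edgeR or in DESeq2, beside 11.6% of all genes. Actg1 missed the adjusted p in 8 of the 12 fits that left out 1 sample and under 5 other settings, Actc1 on both log2 FPKM scales and Myl9 in all 3 limma fits. The genes had been chosen for this contrast between the 2 settings, so nothing is read from these counts.

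The difference between the 2 knockdown effects, called the interaction, was positive for all 10 genes. It was 1.71 (SE 0.12) for Cnn1, 1.42 (SE 0.13) for Acta1, 1.29 (SE 0.12) for Acta2 and 1.25 (SE 0.12) for Tagln on the log2 scale. The remaining 6 genes ranged from 0.47 (SE 0.12) for Myl9 to 1.05 (SE 0.33) for Cald1. Past an adjusted p of 0.05 were 9 of the 10, all but Cald1, beside 1.73% of all tested genes in that direction. Again this restates the choice of the genes.

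The positive values covered several kinds of behaviour. Acta1, Acta2, Actb and Actg1 were lower after knockdown without PE and overlapped with their controls under PE. Cnn1 and Tpm2 crossed over, being lower without PE and higher with it. Tagln was high in siNeg alone and low in the other 3 groups, and Myl9 kept a smaller deficit in FPKM and in edgeR. Actc1 and Cald1 overlapped without PE and were higher after knockdown with it. Set against siNeg, the doubly treated samples had log2 fold changes of 3.07 (SE 0.08) for Cnn1, 1.99 (SE 0.09) for Acta1, 1.27 (SE 0.06) for Actc1 and -1.53 (SE 0.08) for Tagln.

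**Figure D3:**
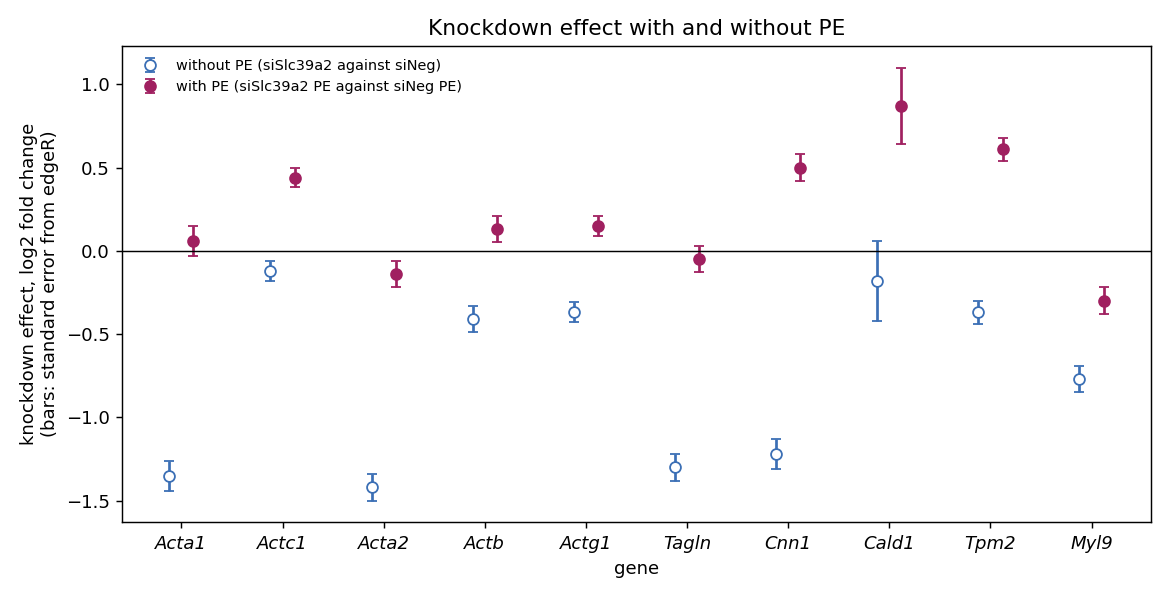
Log2 fold change of siSlc39a2 against siNeg without PE and with PE for each of the 10 genes, with SE bars from edgeR (3 samples per group). Acta1, Acta2, Tagln and Cnn1 lie below -1 without PE, and all 4 lie between -0.14 and 0.50 with PE.

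PE alone split the 10 genes in the control siRNA. Against siNeg, the siNeg PE samples had 4 of them higher (Acta1, Actc1, Cnn1 and Tpm2) and 4 lower (Acta2, Actb, Actg1 and Tagln) at an adjusted p under 0.05. The background was 24.0% of all tested genes higher and 25.7% lower, or 49.7% in either direction. With a log2 fold change beyond 1, 3 of the 10 remained (Acta1 and Cnn1 higher, Tagln lower), beside 6.6% of all tested genes (3.8% higher and 2.8% lower). As both groups had entered the choice of the genes, these counts are a description too. Cnn1 had the largest log2 fold change, 2.57 (SE 0.08), followed by Acta1 with 1.93 (SE 0.09). Actc1, already the top gene, was higher by 0.83 (SE 0.06).

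The lower genes were led by Tagln, whose log2 fold change under PE was -1.48 (SE 0.08). It was -0.76 for both Actb (SE 0.08) and Actg1 (SE 0.06), and -0.43 (SE 0.08) for Acta2. All siNeg PE samples were below all siNeg samples for these 4 genes. Tpm2 was higher by only 0.18 (SE 0.07), its groups overlapped, and it missed the threshold in 8 of the 12 fits that left out 1 sample. Myl9, with 0.09 (95% interval -0.08 to 0.25), and Cald1, with -0.11 (-0.57 to 0.36), did not reach it. The setting mattered for 4 genes. In limma on quantile-normalized log2(FPKM + 1), Acta2 (-0.21), Tpm2 (0.20) and Actc1 missed the threshold and Myl9 (0.31) passed it. That normalization sets Actc1, the top gene, to 1 common value. Myl9 also passed in limma on log2(count + 1) (0.24).

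After knockdown, PE went with higher levels of 7 of the 10 genes and lower levels of 3 (Actb, Actg1 and Tagln) in siSlc39a2 PE against siSlc39a2, beside 30.7% and 29.3% of all tested genes. The number lower was 1 to 3 when 1 sample was left out and 0 to 3 under the other settings. Tagln missed the threshold without siSlc39a2 replicate 1 or 2 or siSlc39a2 PE replicate 1 or 2, and in all limma fits, and Actb missed it without replicate 2 of either group and in limma on log2 FPKM. The largest were Cnn1 with 4.29 (SE 0.09) and Acta1 with 3.35 (SE 0.10) on the log2 scale. Acta2 was 0.86 (SE 0.08) higher, the opposite sign to its change in siNeg. Tagln differed little from its reduced level (log2 fold change -0.23, SE 0.08), and so did Actb (-0.21, SE 0.08) and Actg1 (-0.24, SE 0.06).

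Further smooth muscle and contractile genes, 25 outside the 10, were measured next to them. In siSlc39a2 against siNeg, 16 of these 25 fell and 2 rose at an adjusted p under 0.05 (26.4% of all tested genes were lower), with a median log2 fold change of -0.40 (-0.02 over all tested genes). Over all alternatives 12 to 16 fell and 2 to 7 rose. Filamin A (Flna), an actin crosslinker, fell by 1.26 on the log2 scale (SE 0.13, adjusted p = 4.35e-06 from edgeR), and Csrp2, a LIM protein of smooth muscle, fell by 1.04 (SE 0.14, adjusted p = 4.23e-05), the latter from partly shared reads. Actg2 had 22.4, 22.1 and 22.0 FPKM in siNeg and 11.8, 13.9 and 12.6 FPKM in siSlc39a2 and also fell (log2 fold change -0.95, SE 0.11, adjusted p = 1.40e-05). With PE the same list gave 8 higher and 6 lower (29.2% and 28.1% of all tested genes), with a median of -0.01 (0.01 over all genes).

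In siNeg PE against siNeg, 5 of the 25 rose and 9 fell (24.0% and 25.7% of all tested genes), with a median of 0.04 (-0.01 over all genes). Leiomodin 1 (Lmod1), a nucleator of actin filaments in smooth muscle, fell by 1.81 (SE 0.15, adjusted p = 1.71e-06 from edgeR). Actg2 fell by 1.16 (SE 0.11, adjusted p = 7.12e-06), as did Ppp1r14a, an inhibitor of myosin phosphatase, by 1.12 (SE 0.11, adjusted p = 7.37e-06), and Flna by 1.04 (SE 0.13, adjusted p = 4.69e-05). Tagln and Acta2 were lower in the same comparison, whereas Cnn1 was higher.

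For the interaction, 9 of the 25 were positive past an adjusted p of 0.05 and none negative (1.73% and 1.88% of all tested genes), with a median of 0.43 (0.03 over all genes). At an unadjusted p under 0.05 there were 18 positive and none negative, and DESeq2 called 11 positive and none negative. The number called lay between 5 and 15 over all alternatives, none of them negative. The largest was alpha-actinin 1 (Actn1), an actin crosslinker of non-muscle cells, with 1.60 (SE 0.21, adjusted p = 0.00115 from edgeR). Csrp1 had 0.93 (SE 0.11, adjusted p = 4.96e-04), Lmod1 0.87 (SE 0.21, adjusted p = 0.0374) and Tpm4 0.79 (SE 0.17, adjusted p = 0.0241, partly shared reads). Actg2 had 0.57 (SE 0.16, adjusted p = 0.0685) and did not pass. These genes were listed with the pattern of the 10 genes already known, so they are no independent support for it.

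**Figure D4:**
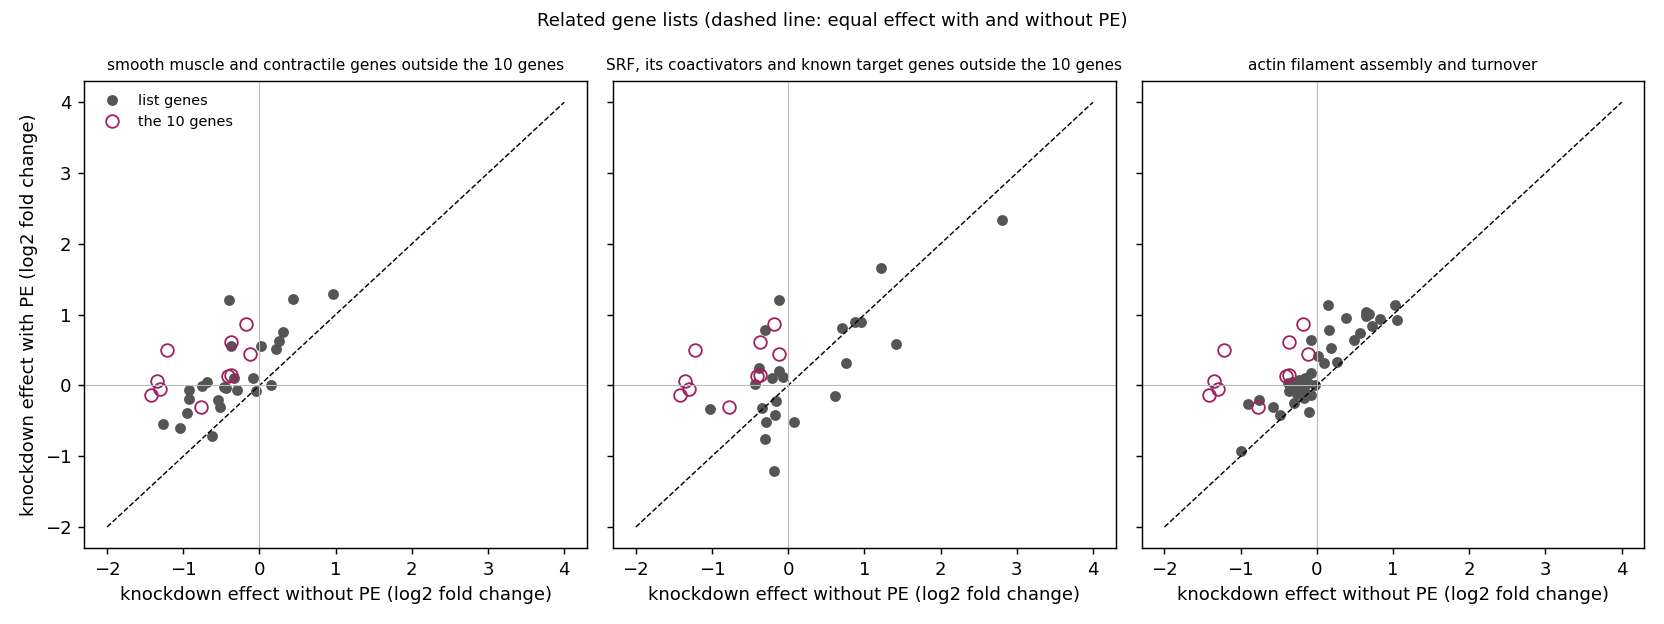
Log2 fold change of siSlc39a2 against siNeg without PE (x axis) and with PE (y axis) for the genes of 3 lists, one panel each, on shared axes. Filled points are genes of the list, open circles the 10 genes, and the dashed diagonal marks equal effects. The 25 smooth muscle and contractile genes lie mostly left of 0 on the x axis (median -0.40) and around 0 on the y axis (median -0.01), whereas the SRF list spreads to both sides.

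The list of SRF, its coactivators and known target genes gave no common direction. It was drawn outside the genes followed above, among them Acta1, Actc1 and Actg1 with an exact CArG match. It also held no gene of the smooth muscle and contractile list, so SRF targets among all those genes are not covered by it. The deposited data hold 25 genes of this list, of which 23 were counted. Ccn1 and Ccn2, held there under the older symbols Cyr61 and Ctgf, were missed and enter none of its values. Of the 23 tested genes, 7 rose and 5 fell in siSlc39a2 against siNeg, and 4 were positive and 4 negative in the interaction (median 0.01). The 12 called on knockdown are near the 49.2% of all tested genes, and in the interaction 1.73% of all genes were positive and 1.88% negative. Knockdown raised the natriuretic peptide gene Nppb by 2.81 on the log2 scale (SE 0.17, adjusted p = 2.37e-08 from edgeR), the stress-responsive Ankrd1 by 1.22 (SE 0.11, adjusted p = 1.76e-06) and the immediate early gene Fos by 1.41 (SE 0.13, adjusted p = 2.24e-06, partly shared reads). Non-muscle myosin heavy chain Myh9 fell by 1.02 (SE 0.24, adjusted p = 0.0037, partly shared reads). PE raised Nppb by 5.19 and Nppa by 4.63 (adjusted p = 8.51e-10 for each, edgeR), Ankrd1 by 2.32 (adjusted p = 3.19e-08) and Fhl1 by 2.28 (adjusted p = 3.47e-08). Several classical hypertrophy genes of this list therefore rose on knockdown, at which Acta1 was lower.

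In the interaction, Fhl1, a LIM protein of the sarcomere, had 1.33 (SE 0.16, adjusted p = 5.58e-04 from edgeR) and Filip1l 1.10 (SE 0.28, adjusted p = 0.0493). The immediate early genes were negative, with -1.02 (SE 0.19, adjusted p = 0.00924) for Egr2 and -0.82 (SE 0.18, adjusted p = 0.0243) for Fos.

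Among the regulators themselves, Srf fell in siSlc39a2 against siNeg by 0.44 on the log2 scale (SE 0.05, adjusted p = 2.90e-05 from edgeR) and fell by 0.33 under PE in siNeg (SE 0.05, adjusted p = 4.44e-04). Between siSlc39a2 PE and siNeg PE its log2 fold change was 0.02 (SE 0.05, adjusted p = 0.8), and its interaction was 0.46 (SE 0.08, adjusted p = 0.00551). Mrtfa, a coactivator, fell by 0.34 on knockdown without PE (SE 0.08, adjusted p = 0.00382) and by 0.32 with PE (SE 0.08, adjusted p = 0.00427). Myocd (myocardin), the coactivator of heart and smooth muscle, rose by 0.71 without PE (SE 0.15, adjusted p = 0.0018) and by 0.81 with PE (SE 0.15, adjusted p = 4.58e-04). Mrtfb had -0.31 without PE (SE 0.23, adjusted p = 0.279) and fell by 0.75 with PE (SE 0.23, adjusted p = 0.0134). Of these 4 regulators, Srf passed the interaction test, and Myocd (0.11, SE 0.21, adjusted p = 0.873), Mrtfa (0.01, SE 0.11, adjusted p = 0.974) and Mrtfb (-0.44, SE 0.32, adjusted p = 0.571) did not.

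Genes of actin filament assembly and turnover, 39 in all, were split after knockdown, 10 higher and 11 lower at an adjusted p under 0.05 (median -0.08), which is near the 49.2% of all tested genes called. The monomer-binding Cap2, of striated muscle, rose by 1.05 (SE 0.06, adjusted p = 1.26e-08 from edgeR) and Actr2, a subunit of the Arp2/3 nucleation complex, by 1.02 (SE 0.12, adjusted p = 1.47e-05). Under PE in siNeg, 16 rose and 10 fell (49.7% of all tested genes were called), led by the formin Diaph3 with 1.27 (SE 0.33, adjusted p = 0.00747). In the interaction 7 were positive at an adjusted p under 0.05 and none was negative, by edgeR (median 0.21). Over all tested genes 1.73% were positive and 1.88% negative. There were 15 and 1 of the list at an unadjusted p under 0.05 and 7 and 1 in DESeq2. The number positive was 3 to 6 when 1 sample was left out and 3 to 11 under the other settings. Among them were muscle cofilin Cfl2 with 0.72 (SE 0.12, adjusted p = 0.00415), Cap1 with 0.62 (SE 0.10, adjusted p = 0.00462), the severing protein gelsolin (Gsn) with 0.55 (SE 0.09, adjusted p = 0.0033) and the monomer-sequestering thymosin beta-4 (Tmsb4x) with 0.42 (SE 0.10, adjusted p = 0.0386).

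Markers of cell types that a culture of heart cells can hold moved with some of these results. The level of 10 markers of smooth muscle cells and pericytes was summed in CPM (counts scaled to library size with TMM). It was 1030 to 1140 CPM in siNeg, 620 to 705 in siSlc39a2, 1001 to 1088 in siNeg PE and 873 to 907 in siSlc39a2 PE. Of these 10 markers 9 fell on knockdown without PE and 3 were positive in the interaction. Against siSlc39a2, siSlc39a2 PE had 4 of them higher and 5 lower (median log2 fold change -0.00), beside 30.7% and 29.3% of all tested genes. Mcam and Cspg4, named after their values were seen, rose most there in CPM. Mcam went from 117, 112 and 114 to 283, 280 and 297 CPM. Cspg4 went from 207, 180 and 162 to 342, 331 and 301 CPM. The 10 markers share 3 genes (Actg2, Lmod1 and Myh11) with the list of smooth muscle and contractile genes above. Summed over 11 fibroblast markers, the level was 15630 to 20344 CPM in siNeg, 6366 to 6783 in siSlc39a2, 10652 to 13391 in siNeg PE and 4495 to 5917 in siSlc39a2 PE. Of the 11 fibroblast markers, 8 fell and 1 rose after knockdown, both without and with PE. Myl9 was also lower in both. Pdgfra and Tcf21, given below, were not lower without PE. None of the 11 passed the interaction test in edgeR or DESeq2, with 1 at an unadjusted p under 0.05. As background for the marker counts, 26.4% of all tested genes were lower on knockdown without PE and 28.1% with PE. In the interaction 1.73% of all tested genes were positive.

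Defining markers of these cells were detected in every group. Myh11, the smooth muscle myosin heavy chain, had 12.2 CPM in siNeg, 7.29 in siSlc39a2, 8.86 in siNeg PE and 8.79 in siSlc39a2 PE, and fell on knockdown without PE (log2 fold change -0.75, SE 0.20, adjusted p = 0.00746 from edgeR). The pericyte marker Rgs5 stayed below 1 CPM on average in each group, and Notch3 had 62.6 CPM in siNeg, 21.8 in siSlc39a2, 33.6 in siNeg PE and 14.9 in siSlc39a2 PE. Among defining fibroblast markers, Pdgfra had 41.1 CPM in siNeg and 44.7 in siSlc39a2, Tcf21 27.4 and 34.7, and Dcn 60.5 and 34.7. Cardiomyocyte markers, 11 in all, summed to 51125 to 53644 CPM in siNeg, 39646 to 40805 in siSlc39a2, 44957 to 49341 in siNeg PE and 38963 to 40419 in siSlc39a2 PE, and 6 of the 11 fell on knockdown both without and with PE. Of the defining cardiomyocyte markers, Myh6 (partly shared reads) had 13729, 16454 and 17391 CPM in siNeg and 7921, 7380 and 6919 in siSlc39a2. Tnnt2 overlapped between these groups, with 5819, 4932 and 4495 CPM in siNeg and 5247, 5276 and 5575 in siSlc39a2. So did Ryr2, with 507, 826 and 808 CPM in siNeg and 550, 522 and 568 in siSlc39a2. Endothelial markers stayed at 14.2 to 22.0 CPM in total. Macrophage markers summed to 82.2 to 119 CPM in siNeg, 41.2 to 53.4 in siSlc39a2, 39.2 to 53.0 in siNeg PE and 31.0 to 36.2 in siSlc39a2 PE, highest in siNeg as Tagln was, and 4 of 6 fell on knockdown without PE. The part of these cell types in the values of the 10 genes was not tested.

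Genes with a pattern over the 12 samples most like that of Acta2 were Unc5b, Tril, Ckb, Thbs3 and Mmp23. Likeness was the root mean square difference of log2 CPM after centring each gene on its own mean, among 9515 genes, and was 0.15, 0.16, 0.17, 0.20 and 0.23, respectively. In siSlc39a2 against siNeg their log2 fold changes were between -1.63 (Thbs3) and -1.13 (Unc5b), and their interactions were between 0.72 (Mmp23) and 1.22 (Tril). Tagln was not among them, nor was another gene of the 10, which the ranking left out.

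For Acta1 the nearest genes were Wfdc1 (0.35), Inha (0.36), Sypl2 (0.40), Casq1 (0.41, partly shared reads) and Ptgis (0.45), at larger distances than for Acta2. All 5 were higher in siNeg PE than in siNeg, with log2 fold changes from 0.90 (Ptgis) to 2.67 (Inha). Ptgis, the prostacyclin synthase, had a knockdown effect of -1.32 without PE and 0.58 with PE and thus came nearest to Acta1 in that respect, whereas Inha was lower on knockdown by about as much with PE (-0.54) as without (-0.61). These genes were chosen for their likeness, and their values are given without a test.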

How the data were processed

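RNA of NRVMs of 4 groups with 3 biological replicates each (12 samples, stated by the study to be independent) had been sequenced. The authors deposited expected counts per gene, not normalized, and FPKM values of the same 18483 genes. The submitters' processing notes name HISAT, Bowtie2 and the genome build Rnor_6.0. The counting program and the annotation are not given in the sources used here. No columns of comparisons by the authors were in these tables, and 0 sample columns were left unused. Of the deposited expected counts 78.7% were whole (tolerance 0.005). The other counts belong to genes that share reads.

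Expected counts were rounded, and 13967 genes kept by filterByExpr were fitted with edgeR 4.0.16 (R 4.3.3) after TMM normalization, in one model of all 12 samples with 8 residual degrees of freedom. Groups were compared by the quasi-likelihood test with Benjamini-Hochberg adjustment over all tested genes. Calls required an adjusted p under 0.05, alone or with a log2 fold change beyond 1. For the interaction, the knockdown effect without PE was subtracted from that with PE. Replicates were checked for copies and differed beyond sampling noise (chi-square over degrees of freedom from 4.88 to 34.9). P-values measure the spread between these cultures.

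The 10 genes, the lists of further genes and the cell type markers were chosen with earlier results of these data known. A test of the 10 genes in siNeg PE against siNeg had been planned. Its calls are given as a description only, since both groups entered their choice. Named are the 10 genes, Slc39a2, Actg2, Srf, Myocd, Mrtfa, Mrtfb, defining markers, the 5 genes nearest to Acta2 and to Acta1 (mean log2 CPM above 3) and from each list up to 4 genes with the largest changes past the thresholds (in the interaction, past the adjusted p alone) with a mean log2 CPM above 1. Of the genes this rule names, 1 is not reported here. Log2 CPM used a prior count of 2. Motifs were searched in RefSeq promoters of GRCr8, a later build than that of the files.

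Alternatives were RLE size factors, library size without TMM, no filter, DESeq2 1.42.0, limma 3.58.1 on quantile-normalized values (log2(count + 1), or log2 FPKM with 1 or 0.1 added), the replicate number as a block, the groups of a comparison alone and leaving out each sample.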

Additional observations from a re-analysis of the deposited data

Results flagged for a closer look

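The knockdown effects with and without PE differed past an adjusted p of 0.05 in edgeR's interaction for 9 of the 10 genes. They had been listed with this difference in view, so the values are a description and no test of it. The interaction on the log2 scale was 1.71 for Cnn1, 1.42 for Acta1, 1.29 for Acta2, 1.25 for Tagln, 0.98 for Tpm2, 0.57 for Actc1, 0.55 for Actb, 0.52 for Actg1 and 0.47 for Myl9.

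Among the further genes named, the interaction passed for Actn1 (1.60), Csrp1 (0.93), Lmod1 (0.87) and Tpm4 (0.79) of the smooth muscle and contractile list. These genes and those below came from lists chosen with earlier results known, and all but Srf were named for large changes. Their values are therefore no independent test of the difference. Fhl1 (1.33), Filip1l (1.10) and Srf (0.46) of the SRF list were positive, and Egr2 (-1.02) and Fos (-0.82) were negative. Cfl2 (0.72), Cap1 (0.62), Gsn (0.55) and Tmsb4x (0.42) came from the actin assembly list. No cause of these differences was tested.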

How the results depend on the processing

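The values rest on 3 samples a group, a single siRNA sequence and, for actins, partly shared reads. Counts of genes past both thresholds (adjusted p and log2 fold change) moved by over 1.5 times in limma on log2(FPKM + 1), to 610 from 1366 in siSlc39a2 against siNeg, 674 from 1621 in siSlc39a2 PE against siNeg PE, 287 from 922 in siNeg PE against siNeg, 583 from 1469 in siSlc39a2 PE against siSlc39a2, 1981 from 4113 in siSlc39a2 PE against siNeg and 85 from 138 in the interaction. Leaving out each sample in turn gave 1316 to 1407, 1468 to 1837, 798 to 1106, 1202 to 1830, 3679 to 4501 and 93 to 164, and of the 10 genes 4 to 4, 0 to 1, 3 to 3, 4 to 5, 4 to 4 and 4 to 5, in the same order. Cald1 was the gene gained between the PE groups, without siNeg PE replicate 3 or without siSlc39a2 PE replicate 1.

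With the replicate number as a block, 1386, 1627, 929, 1466, 4105 and 182 genes were called, and 4, 0, 3, 4, 4 and 5 of the 10, Cald1 being gained in the interaction. Same-numbered samples deviated together more than differently numbered ones on average in each pair of groups, but not in every pair of samples, so the numbers were not used as a pairing. Without TMM the median of all genes moved to 0.13 in siSlc39a2 against siNeg and to -0.11 in the interaction, and the share of higher genes among those called from 46.7% to 58.9% and from 45.7% to 24.7%.

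Of 530 fold changes of the 10 genes under the other settings, 5 turned the sign of a value past an adjusted p of 0.05. Among values that had not passed, Actc1 in siSlc39a2 against siNeg went from -0.12 to 0.97 with log2(count + 1), and Acta2 between the PE groups from -0.14 to 0.05 on both log2 FPKM scales. Myl9 in siSlc39a2 PE against siNeg was 0.28 with log2(FPKM + 1), 0.28 with log2(FPKM + 0.1) and 0.06 with log2(count + 1), instead of -0.21 (cause not tested). The interaction of Actc1 was -0.00 with log2(FPKM + 1) and -0.67 with log2(count + 1), instead of 0.57. Quantile normalization gives the gene ranked first in each sample 1 common value, which Actc1 was in FPKM. The interaction call of Myl9 was lost with RLE size factors, without TMM, without the filter, with limma on log2(count + 1) and in 10 fits that left out a sample. Those of Actb and Actg1 were lost in all limma fits, and that of Actc1 on both log2 FPKM scales. Each limma fit called 6 of the 10 genes in the interaction.

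The share of Acta1 and Actc1 among actins, taken from counts and not per length, was 74.5% in siNeg and 80.4% in siSlc39a2, and with PE 89.7% and 91.8%. Without Actg2 in the sum it was 83.1% in siSlc39a2. Leaving out a sample gave 76.3% to 77.2% in siNeg and 83.0% to 83.0% in siSlc39a2, and with PE 90.2% to 91.1% and 92.6% to 92.9%.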

Other observations

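Actb and Gapdh, both common reference genes of qPCR, are given here after their values were seen. Gapdh (partly shared reads) fell by 0.41 on the log2 scale in siSlc39a2 against siNeg (SE 0.07, adjusted p = 3.86e-04 from edgeR) and by 0.45 in siSlc39a2 PE against siNeg PE (SE 0.07, adjusted p = 1.63e-04), with 0.08 (SE 0.07, adjusted p = 0.362) in siNeg PE against siNeg. The ratio of Actb to Gapdh in CPM was 0.318 ± 0.0279 (SD, n = 3) in siNeg, 0.318 ± 0.0176 in siSlc39a2, 0.178 ± 0.0256 in siNeg PE and 0.267 ± 0.0221 in siSlc39a2 PE. Without PE, Actb (-0.41) and Gapdh were lower after knockdown by a like factor. With PE, Actb was not (0.13), and the ratio was higher after knockdown.

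The 10 genes together held 1.7% of all counts in siNeg, 1.48% in siSlc39a2, 2.66% in siNeg PE and 3.38% in siSlc39a2 PE on average. By mean FPKM rank, Acta1 stood at 228 in siNeg, 492 in siSlc39a2, 24 in siNeg PE and 19 in siSlc39a2 PE.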
